A study of Drosophila melanogaster with 23 samples.

Results

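The libraries compared were the 3 that carry replicate number 4 and the 3 that carry replicate number 3 in wild type, ASH1L/+ and WDFY3/+ flies, 6 of the 23 libraries of the series. They were chosen by label, in order to describe the second axis of variation among the libraries. Within genotype they were set against each other, replicate 4 minus replicate 3. RNA came from adult Drosophila heads 5 to 7 days after pupation. Wild type was the w1118 strain, ASH1L/+ flies carried 1 mutant copy of ash1 (the ash1-mimic stock), and WDFY3/+ flies carried 1 mutant copy of bchs (the bchs58 stock). The labels give no treatment, and each mutant genotype rests on 1 stock. CHD2/+ and CHD8/+ flies, heterozygous for Chd1 and kis, supplied 4 further libraries with the same replicate numbers. These were kept out of the fit and used as held-out pairs. The methods of the study call the replicates biological and do not give what a replicate number marks. The labels number the samples 84 to 88 for replicate 3 and 89 to 94 for replicate 4, all in lane 7, so that order of preparation, age or rearing batch, dissection and replicate number cannot be told apart.

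A fly head holds the brain and the compound eyes together with fat body, muscle, cuticle, glia and haemocytes. The head fat body is the counterpart of liver and adipose tissue: it secretes yolk proteins, storage proteins and, under immune challenge, antimicrobial peptides. Neurons of the head express synaptic proteins and ion channels from unusually long genes, and a set of clock neurons, photoreceptors, glia and fat body cells run a molecular clock in which transcripts of per and tim rise and fall over each day. In bulk RNA, fewer cells of a type and less RNA per cell cannot be told apart.

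Many transcripts of neuronal channels, receptors and synaptic proteins were higher in replicate 4, as were 4 clock genes, several activity-induced genes and 16 chromatin regulators. Some or most of the measured transcripts of yolk proteins, Bomanins, Turandot proteins, odorant-binding proteins, detoxification enzymes, ribosomal proteins and the respiratory chain were lower. The transcript of the storage protein Lsp2 was lower as well. Of 8434 genes tested, 2540 (30.1%) passed both thresholds used here, a limma p-value under 0.05 after Benjamini-Hochberg adjustment and a 1.5-fold difference on the log2(value + 1) scale. Genes that passed are called higher or lower below. In replicate 4, 1345 of the 8434 genes (15.9%) were higher and 1195 (14.2%) were lower, and the median difference over all genes tested was -0.01. The values of the 3 replicate 4 libraries lay wholly above those of the 3 replicate 3 libraries for 1742 genes (20.7%) and wholly below for 1499 (17.8%). Genes were tested if at least 3 of the 6 libraries reached 10. Of the genes called higher, 42 stayed under 10 in all of replicate 3, and of those called lower 36 did so in all of replicate 4, so that they were tested through 1 group alone and had to differ.

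The libraries themselves stood apart in several general measures. Normalized counts, the unit of every level given here, summed to 4760607, 8558268 and 5669209 in replicate 3 of wild type, ASH1L/+ and WDFY3/+ and to 4030172, 4189461 and 4461831 in replicate 4. The 10 most abundant genes took 17.1% to 23.2% of the sum in replicate 3 and 11.3% to 12.96% in replicate 4, and 5872 to 6286 genes were listed at 0 in replicate 3 against 6481 to 6838 in replicate 4. The depth behind these values was estimated at 2.92 to 6.44 M reads. These estimates lie below the whole interquartile range of mapped reads per sample that the paper reports. They take the commonest step between low values as 1 read, which scaling gene by gene can upset, so they are rough. ASH1L/+ replicate 3 had the largest sum and 7.07% of it on the mitochondrial genome, against 0.95% to 2.51% in the other 5 libraries. Without the ASH1L/+ pair, 898 of the 8434 genes tested were called higher and 513 lower. The lists below are given both ways, and their counts without that pair stand beside these smaller numbers over all genes. Single libraries moved the counts too: 847 were higher and 452 lower without ASH1L/+ replicate 4, 836 and 581 without WDFY3/+ replicate 4, and 1107 and 718 without ASH1L/+ replicate 3.

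On a principal component analysis of the 20 libraries of the 5 genotypes, the second axis carried 18.9% of the variance. Replicate number accounted for 56.4% of the spread of its scores and genotype for 12.2%. Its scores were 61.2, 57.5 and 66.9 in replicate 4 of wild type, ASH1L/+ and WDFY3/+ and 2.78, -66.5 and 18.7 in replicate 3. The groups did not overlap, but the comparison was chosen to describe this axis, so this separation is no further result. The CHD2/+ pair, outside the 6 libraries compared but among the 20 that define the axis, moved the same way from -30.6 to 50.8. The CHD8/+ pair did not, with -19.9 in replicate 3 and -12.3 in replicate 4. The first axis carried 32.8% of the variance, and replicate number accounted for 81.3% of the spread of its scores. It too separated the 6 libraries, with 33.2, 47.6 and 40.4 in replicate 3 and 14.4, 3.27 and -0.74 in replicate 4. On it CHD2/+ went from 51.4 to 28.3 and CHD8/+ from 44.9 to 55.6.

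**Figure D1:**
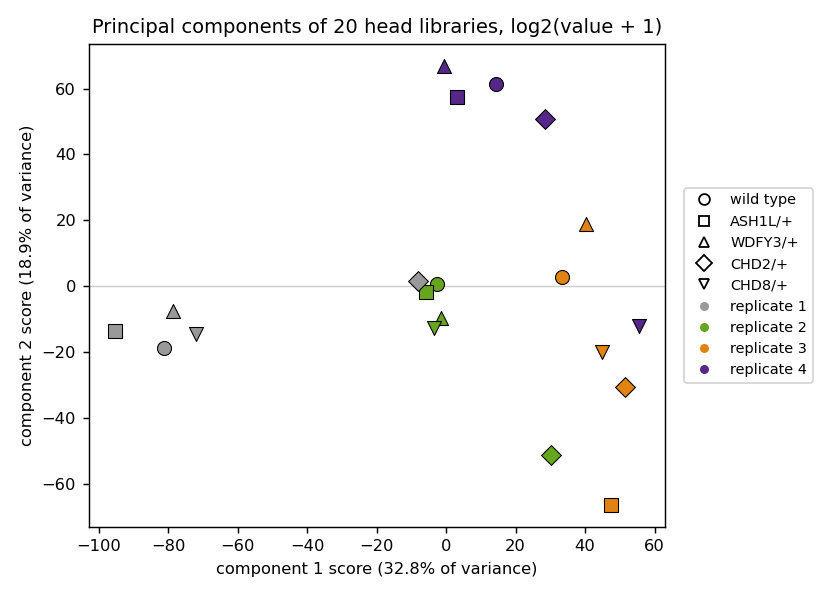
Scores of 20 head libraries on the first and second principal components of log2(value + 1), with marker shape for genotype and colour for replicate number. Replicate 4 of 4 genotypes sits at 50.8 to 66.9 on the second component, while CHD8/+ replicate 4 lies at -12.3 beside the replicate 3 libraries.

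The held-out pairs gave the replicate 4 minus replicate 3 difference in libraries outside the fit, and CHD2/+ went with the called genes while CHD8/+ did not. Of the 1345 genes called higher, 1246 (92.6%) were higher in replicate 4 of CHD2/+, where 51.1% of all genes tested were. Of the 1195 genes called lower, 1114 (93.2%) were lower in replicate 4 of CHD2/+, against 48.9% of all. In the CHD8/+ pair the shares were 23.1% for genes called higher (45.2% of all) and 50.5% for genes called lower (54.7% of all). The difference between these pairs was not tested, since each is 1 library against 1.

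Many genes of synaptic transmission were higher. Of 19 neuronal ion channel genes tested out of 21 in the tables, 13 were higher in replicate 4 and none lower, with a median log2 difference of 1.21. The nicotinic and GABA receptor list had 12 of 16 higher (17 in the tables) and a median of 1.30, and the pan-neuronal and synaptic list had 17 of 27 higher (28 in the tables) and a median of 1.06. None of their tested members was called lower. Leaving that pair of ASH1L/+ libraries out, the same 3 lists had 11, 11 and 15 genes higher, with medians of 1.15, 1.34 and 0.92.

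Ca-alpha1T, a low-threshold calcium channel, had the largest rise in the channel list. Its normalized counts were 290, 196 and 286 in replicate 3 of wild type, ASH1L/+ and WDFY3/+ and 968, 1537 and 1584 in replicate 4, a log2 difference of 2.39 (standard error 0.25, adjusted p = 0.00050 from limma). Every replicate 4 library was above every replicate 3 library. Shab, a delayed rectifier potassium channel, went from 166, 149 and 275 to 496, 970 and 1204 (log2 difference 2.14), and NaCP60E, a sodium channel homolog, from 375, 479 and 524 to 1356, 1962 and 2386 (2.02). The groups of both were apart. Among receptors, nAChRbeta1, a nicotinic acetylcholine receptor subunit, had 147, 83.5 and 125 in replicate 3 and 477, 592 and 595 in replicate 4 (log2 difference 2.25, standard error 0.24, adjusted p = 0.00052 from limma). GluClalpha, a glutamate-gated chloride channel, and GABA-B-R1, a metabotropic GABA receptor, had log2 differences of 1.63 and 1.22.

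Of the pan-neuronal and synaptic list, the members with the smallest p serve as examples. The active zone scaffold gene brp had 301, 491 and 481 normalized counts in replicate 3 and 829.9, 1199 and 1526 in replicate 4, a log2 difference of 1.47 (standard error 0.19, adjusted p = 0.00077 from limma). The groups were apart, the lowest replicate 4 library being 1.69 times the highest replicate 3 library. Log2 differences were 1.83 for Rim, which tethers vesicles and channels at the active zone, 1.91 for Nrx-1, a synaptic adhesion protein, 1.74 for Rbp, a Rim-binding protein, and 1.06 for unc-104, the kinesin that carries synaptic vesicle precursors. The neuronal markers elav, nSyb, Syt1 and brp, taken as the 4 markers of the cell type, were all higher, and their summed level was 3918 to 5281 in replicate 3 and 9816 to 13793 in replicate 4.

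Transmitter enzymes and transporters were mixed, with 7 of 20 higher, 3 lower and a median of 0.35. The acetylcholine genes ChAT, which makes the transmitter, and Ace, which degrades it, had log2 differences of 1.09 and 0.90, and Vmat, the vesicular monoamine transporter, 1.13. In contrast, ple, the tyrosine hydroxylase of dopamine synthesis, had 400, 745 and 386 in replicate 3 and 227, 245 and 194 in replicate 4 (log2 difference -1.14, adjusted p = 0.015 from limma). All replicate 4 values of ple were below all replicate 3 values. Its log2 difference without the ASH1L/+ pair was -0.90 (adjusted p = 0.074 from limma). With that pair left out, 3 of the 20 genes were higher and none lower, beside 898 and 513 of the 8434 genes tested.

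Neuropeptide genes did not move as a group: 3 of 30 were higher and 5 lower with a median of 0.13, and without the ASH1L/+ pair none was higher, 3 were lower and the median was -0.12. The lower members included 2 insulin-like peptides of brain neurosecretory cells. Ilp5 had 122, 741 and 168 normalized counts in replicate 3 and 33.3, 33.4 and 47.4 in replicate 4 (log2 difference -2.69, standard error 0.48, adjusted p = 0.0030 from limma), and Ilp2 had 722, 945 and 886 against 290.0, 398 and 359 (log2 difference -1.29). CCHa2, a nutrient-responsive peptide of fat body and gut, had 1928, 13609 and 1843 in replicate 3 and 809, 487 and 541 in replicate 4 (log2 difference -2.61). The groups of all 3 genes were apart. For Ilp5 and CCHa2 ASH1L/+ replicate 3 was far above the other libraries, and without the ASH1L/+ pair their log2 differences were -1.82 and -1.51.

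**Figure D2:**
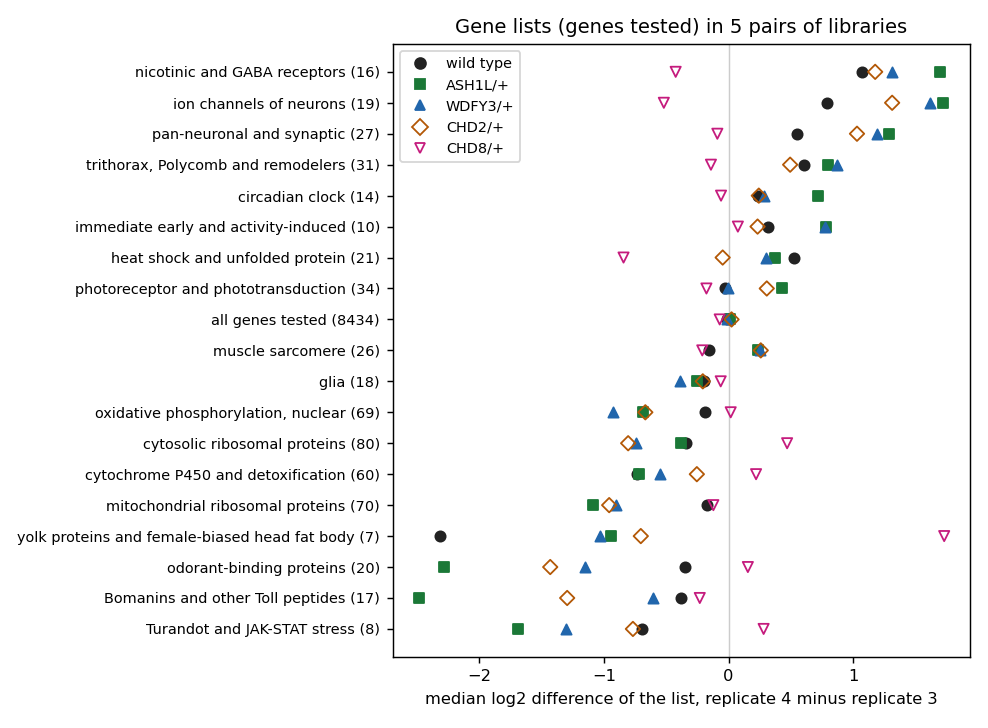
Median log2 difference, replicate 4 minus replicate 3, of 18 gene lists and of all genes tested, in each genotype pair; filled markers are the 3 pairs of the fit and open markers the held-out CHD2/+ and CHD8/+ pairs. The channel, receptor and synaptic lists lie between 0.55 and 1.72 in 4 pairs and between -0.52 and -0.09 in CHD8/+.

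Regulators of chromatin were higher in about as many cases as not. The trithorax, Polycomb and remodeler list had 16 of 31 genes higher and none lower (35 in the tables), with a median of 0.78, and without the ASH1L/+ pair 13 were higher with a median of 0.85. Of the 5 fly genes mutated in the study, 4 were higher in replicate 4, with and without that pair. The fifth, wrd, which encodes a regulatory subunit of protein phosphatase 2A, was not called (log2 difference 0.17). Their longest transcripts have 4402 to 18528 bases. Among all protein-coding genes tested with transcripts of 4164 bases or more, 50.9% were higher, and the part of length was not tested. For ash1, a histone methyltransferase, the values were 29.1, 11.6 and 40.2 in replicate 3 of wild type, ASH1L/+ and WDFY3/+ and 91.9, 77.2 and 121 in replicate 4 (log2 difference 1.94, standard error 0.30, adjusted p = 0.0017 from limma). ASH1L/+ was the lowest of the 3 genotypes in both replicates. The autophagy adaptor gene bchs had 131, 165 and 183 against 295, 319 and 351 (log2 difference 1.01), highest in WDFY3/+ in both replicates. It was not highest there in replicates 1 and 2. These had 299.9 and 162.6 in wild type, 390 and 180 in ASH1L/+, and 285.9 and 164.5 in WDFY3/+. The remodelers kis and Chd1 had log2 differences of 1.41 and 1.21, and trx and Mi-2, a histone methyltransferase and the ATPase of the NuRD complex, 1.44 and 1.36.

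Length of the transcript ordered the differences. The 7989 protein-coding genes tested were split by their longest annotated transcript into 5 bins of equal size. The median log2 difference was -0.72 in the shortest bin (255 to 1183 bases), -0.34, -0.07 and 0.30 in the next ones, and 0.74 in the longest (4164 to 71382 bases). Of the longest bin, 50.9% were called higher and 1.63% lower, and of the shortest 1.06% and 32.4%. Among genes above and at or below the median level, the longest bin had medians of 0.79 and 0.56 and the shortest -0.85 and -0.62. The gap between the longest and the shortest bin was 0.95 in wild type, 1.90 in ASH1L/+, 1.56 in WDFY3/+ and 1.48 in the held-out CHD2/+ pair, and -0.18 in CHD8/+.

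**Figure D3:**
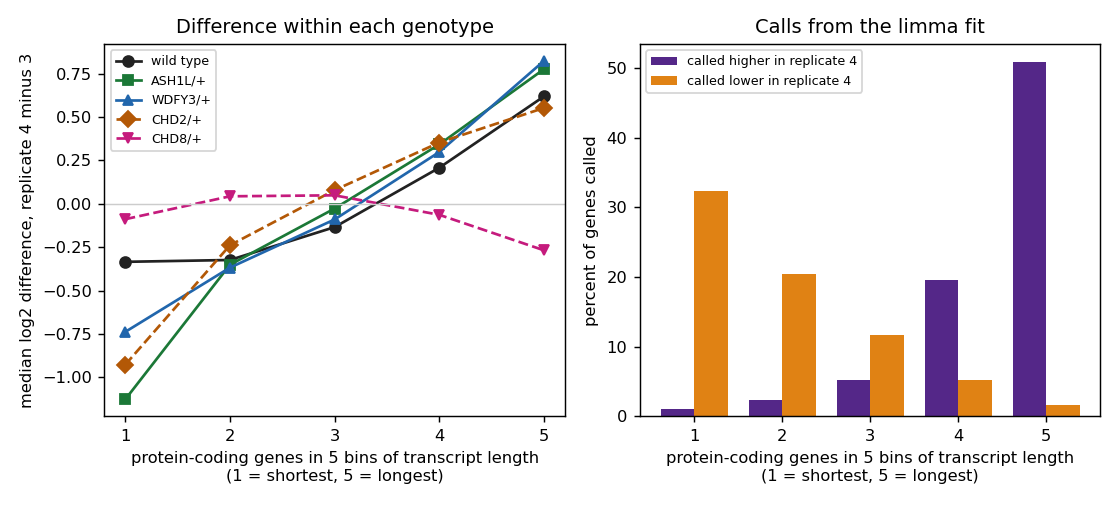
Left, median log2 difference by bin of transcript length for each of the 5 genotype pairs; right, percent of genes in each bin that limma called higher or lower in replicate 4 of wild type, ASH1L/+ and WDFY3/+. Calls higher go from 1.06% in the shortest bin to 50.9% in the longest, and calls lower from 32.4% to 1.63%.

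Over the 7989 genes, Spearman's rho between length and the log2 difference was 0.60, and 0.45, 0.50 and 0.59 within wild type, ASH1L/+ and WDFY3/+. These values describe genes of the same libraries, which are not independent. Many gene lists differ in length as well: the median transcript was 8450 bases in the ion channel list and 5872 in the synaptic list, against 893 for cytosolic ribosomal proteins and 628 for odorant-binding proteins, with 2158 over all genes tested. The chromatin regulator list, with 16 of 31 genes higher and a median of 0.78, had a median transcript of 5495 bases. In the longest bin 50.9% of genes were higher, with a median of 0.74. The part of length, and of the gene-specific factor in the deposited normalization, in the list differences was not tested.

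Of 14 clock genes tested, 10 had a difference above 0. For 8 of the 14 the groups were apart in that direction, against 20.7% of all genes tested. In flies, per, tim, vri and cwo are direct targets of the activators of the clock and peak at about the same time of day. Of 14 clock genes tested, these 4 were called higher, and to, a clock-controlled gene linked to feeding, was called lower, with a median of 0.49 over the list (0.27 with the same calls of 4 and 1 when the ASH1L/+ pair was left out). The values of tim were 83.4, 77.9 and 87.5 in replicate 3 and 498, 329.6 and 602 in replicate 4, a log2 difference of 2.47 (standard error 0.19, adjusted p = 0.00019 from limma). The lowest replicate 4 value was 3.77 times the highest replicate 3 value. For vri the values were 163, 132 and 119 against 591, 324 and 507 (log2 difference 1.74), and for per 22.8, 30.8 and 20.5 against 99.1, 118 and 70.6 (1.90). The difference of cwo, a repressor in the same loop, was smaller at 0.74 (adjusted p = 0.027 from limma).

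The held-out pairs differed in their clock genes. In CHD2/+, tim went from 95.9 in replicate 3 to 569.6 in replicate 4, vri from 77.9 to 508 and per from 15.4 to 162. In CHD8/+, tim went from 181 to 68.4, per from 44.8 to 19.2, and vri stayed at 134. The values of cwo went from 331 to 290.3 in CHD2/+ and from 225 to 295 in CHD8/+, opposite to tim in both. Of 12 genes with a daily rhythm downstream of the clock, 5 were lower and 1 higher, with a median of -0.78, and without the ASH1L/+ pair 2 were lower and none higher. Among them, to had 1075, 2903 and 1638 in replicate 3 and 321, 272 and 315.8 in replicate 4 (log2 difference -2.51, standard error 0.29, adjusted p = 0.00055 from limma), and Achl, which cycles in fly heads, had 181, 134 and 178 against 28.5, 28.8 and 25.7 (-2.52). Neither pair of groups overlapped. The time of day of dissection is not in the labels, and its part in these differences was not tested.

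Of 10 activity-induced and immediate early genes, 5 were higher in replicate 4, against 15.9% of all genes tested. Hr38, the fly homolog of the NR4A immediate early genes and a marker of recent neuronal firing, had 26.9, 22.1 and 19.4 normalized counts in replicate 3 and 159, 352 and 505 in replicate 4. Its log2 difference of 3.69 (standard error 0.35, adjusted p = 0.00043 from limma) was the largest in the list, and every replicate 4 value was at least 5.90 times any replicate 3 value. For sr, the homolog of EGR, the values were 33.2, 60.03 and 27.6 against 120, 196 and 250.0 (log2 difference 2.21), and for CG14186, also induced by neuronal activity, 18.9, 5.82 and 6.24 against 81.8, 70.4 and 51.3 (2.77). The JNK phosphatase puc (1.32) and the stress-induced factor Atf3 (0.69) were called as well, with 1 of the 10 lower and a median of 0.51. CHD2/+ went from 17.3 to 296 for Hr38, and CHD8/+ from 31.6 to 28.1. Other called members rose in CHD8/+: sr from 33.4 to 52.4, CG14186 from 11.1 to 30.3 and puc from 81.6 to 113. Atf3 fell there from 586 to 425. With the ASH1L/+ pair left out, 4 of the 10 were higher and none lower, and Atf3 was no longer called (adjusted p = 0.082 from limma). The longest transcripts of Hr38, sr and Atf3 have 7704, 6377 and 7025 bases, and those of CG14186 and puc 3522 and 2919. In the longest bin of transcript length (from 4164 bases) 50.9% of genes were higher. The part of length in this list was not tested.

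**Figure D4:**
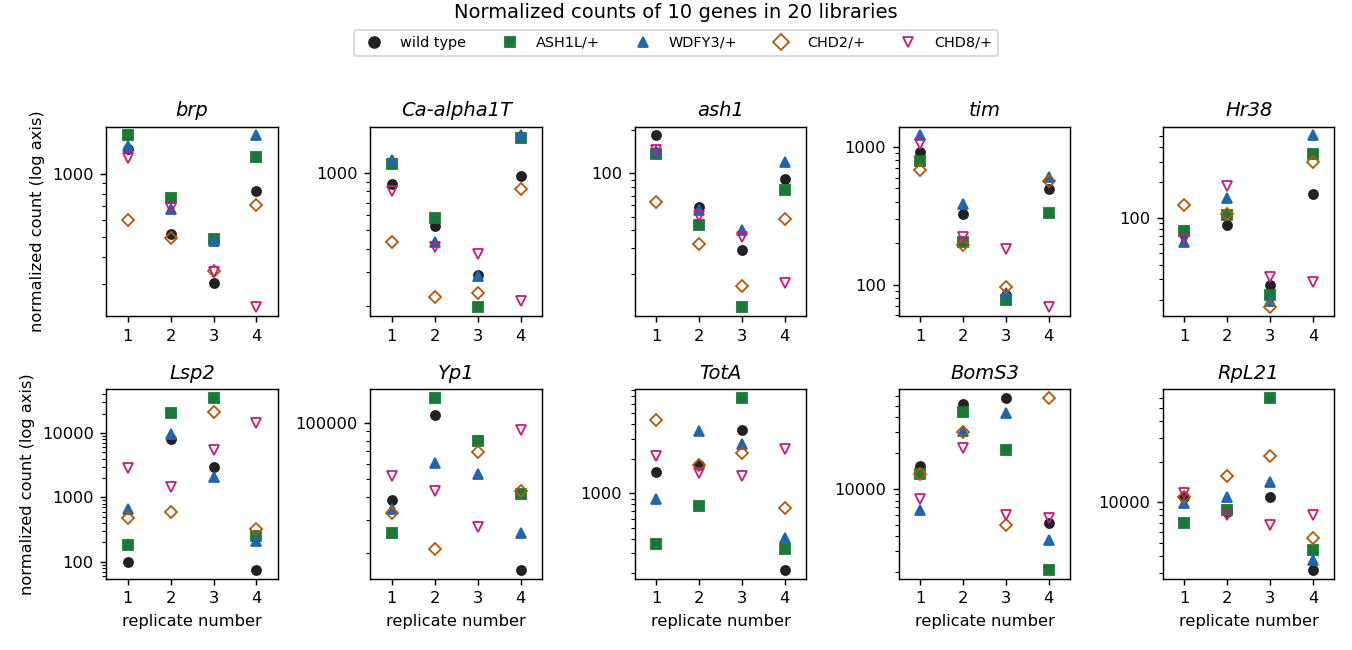
Normalized counts (log axis) of 10 genes in the 20 libraries by replicate number, filled markers for wild type, ASH1L/+ and WDFY3/+ and open markers for CHD2/+ and CHD8/+. In the filled markers tim, at 77.9 to 87.5 in replicate 3, lies at 329.6 to 602 in replicate 4, and Lsp2, at 2104 to 34856 in replicate 3, lies at 74.1 to 252 in replicate 4.

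Of 3 genes tested on the list of vitellogenic, larval serum and storage genes, 2 were lower, with and without the ASH1L/+ pair. Lsp1beta, 1 of these 2, was tested through replicate 3 alone and had to differ, so the count rests on Lsp2. Lsp2, a larval serum protein that adult head fat body also makes, had 2984, 34856 and 2104 normalized counts in replicate 3 and 74.1, 252 and 210.1 in replicate 4 (log2 difference -5.25, standard error 0.78, adjusted p = 0.0015 from limma). The smallest replicate 3 value was 8.35 times the largest of replicate 4. Lsp1beta, a second hexamerin, had 154, 895 and 55.3 against 5.74, 9.25 and 6.05 (log2 difference -4.66, tested through replicate 3 alone), and fit, a satiety-linked secreted protein that is higher in females, 1764, 53505 and 2848 against 164, 362 and 370.1 (-4.52). ASH1L/+ replicate 3 was the highest library for all 3 genes. Leaving out the ASH1L/+ pair, the log2 differences of Lsp2 and fit were -4.32 and -3.18, and both stayed called.

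Yolk protein genes, which the female fat body expresses strongly, had smaller differences at very high levels. Yp1 had 80470, 79622 and 52818 in replicate 3 and 16182, 41463 and 25459 in replicate 4 (log2 difference -1.44, standard error 0.40, adjusted p = 0.022 from limma). The list of yolk proteins and female-biased head fat body genes had 4 of 7 lower and 1 higher, with a median of -1.44 (-0.59 under quantile normalization). Leaving out the ASH1L/+ pair, 4 were lower, none higher and the median was -1.68. Yp2 and Yp3 had log2 differences of -1.67 and -1.75, and the 3 genes are similar in sequence, so that reads could be split among them. Of the male-expressed dosage compensation RNAs, lncRNA:roX1 had 2432, 1415 and 4544 in replicate 3 and 6888, 2895 and 3823 in replicate 4, an overlapping range (log2 difference 0.76, adjusted p = 0.11 from limma). The other, lncRNA:roX2, had 279, 890.1 and 436 against 665, 139 and 137, also overlapping and with the opposite sign (log2 difference -1.03, adjusted p = 0.25 from limma). Of 6 genes on the list of dosage compensation and male markers, 1 was higher and 1 lower, and without the ASH1L/+ pair 1 was lower. The lower gene was to, already counted above among the clock genes and the genes with a daily rhythm. The sex ratio of the heads is not in the labels, and its part was not tested. The 4 fat body markers in the tables had a summed level of 96873 to 169498 in replicate 3 and 38382 to 70996 in replicate 4. Fbp1 among them was at 0 in 5 of the 6 libraries, and apolpp, the lipophorin precursor, was not called (log2 difference -0.77, adjusted p = 0.063 from limma) and turned to 0.50 under quantile normalization.

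Genes of fat body metabolism were mixed. tobi, a glucosidase gene regulated by insulin and glucagon-like signals, had 234, 1062 and 65.9 in replicate 3 and 17.9, 11.6 and 22.7 in replicate 4 (log2 difference -3.84, adjusted p = 0.010 from limma, and 0.055 without the ASH1L/+ pair). Gnmt, which consumes S-adenosylmethionine, had a log2 difference of -2.77 and mdy, a diacylglycerol acyltransferase of lipid storage, -1.70. In all, the list of fat body lipid and sugar metabolism had 8 of 22 genes lower, 2 higher and a median of -0.46. With the ASH1L/+ pair left out, 4 were lower, 2 higher and the median was -0.19.

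Some secreted immune and stress peptides were lower in replicate 4. Bomanins, short peptides that the Toll pathway induces in fat body, and related Toll peptides had 7 of 17 genes lower and none higher (median -1.25; 4 lower and -0.45 without the ASH1L/+ pair). BomS3 had 57678, 21307 and 43629 normalized counts in replicate 3 and 5207, 2082 and 3734 in replicate 4 (log2 difference -3.46, standard error 0.37, adjusted p = 0.00052 from limma). The lowest replicate 3 library was 4.09 times the highest of replicate 4, and the difference without the ASH1L/+ pair was -3.51. The CHD2/+ pair went the other way for this gene, from 4960 to 58147. BomBc2 and IM33 had log2 differences of -2.21 and -3.05. Bomanin genes are near copies of each other, and their assignment is uncertain.

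Turandot proteins are secreted on heat, bacterial or mechanical stress through JAK-STAT and other pathways. TotA had 3556, 6784 and 2694 in replicate 3 and 213, 324 and 406 in replicate 4 (log2 difference -3.72, standard error 0.59, adjusted p = 0.0019 from limma), with no overlap. TotC and TotM had -3.25 and -3.65. Their list had 4 of 8 genes lower, 1 higher and a median of -1.33, and without the ASH1L/+ pair 3 lower, none higher and a median of -0.999. Among peptidoglycan recognition proteins and lysozymes 5 of 12 were lower, with PGRP-SB1, an amidase, at -3.08 and PGRP-SD, a sensor of bacterial cell wall, at -2.71. Without the pair 5 were lower. Antimicrobial peptides proper had 1 of 7 tested genes lower, AttC, with 394, 407 and 22.9 in replicate 3 and 4.06, 3.51 and 27.5 in replicate 4. These groups overlapped, and AttC was not called without the ASH1L/+ pair (adjusted p = 0.098 from limma).

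Odorant-binding proteins, small carriers secreted around sensory neurons and in some cases by fat body, had 11 of 20 tested genes lower and none higher, out of 52 in the tables, with a median of -1.24. Obp99a, also known from the fat body, had 6771, 24205 and 1494 in replicate 3 and 317.4, 657 and 445 in replicate 4 (log2 difference -3.79, standard error 0.72, adjusted p = 0.0041 from limma). The lowest replicate 3 value was above all of replicate 4. With the ASH1L/+ pair left out, 8 of the 20 were lower and the median was -0.80. Chemoreceptor genes were seldom measurable, with 7 of 188 tested and 2 of them higher, 1 without that pair.

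Some detoxification genes were lower too. Of 60 cytochrome P450 and related genes, 19 were lower and 1 higher (median -0.59; 11 lower, none higher and -0.65 without the ASH1L/+ pair). Cyp309a2 had 144, 165 and 119 in replicate 3 and 7.72, 15.1 and 22.7 in replicate 4 (log2 difference -3.26, standard error 0.46, adjusted p = 0.0012 from limma), and its neighbour in the family Cyp309a1 had -2.86. Glutathione and redox genes had 14 of 44 lower and none higher (median -0.49). Among them were GstE14, needed for ecdysteroid synthesis, at -1.93, and Sod1, the cytosolic superoxide dismutase, at -1.26. The median transcript of this list was 975.5 bases. In the shortest bin of transcript length (up to 1183 bases) 32.4% of genes were lower, with a median of -0.72. The part of length was not tested. Leaving out the ASH1L/+ pair, 4 of the 44 were lower, beside 513 of the 8434 genes tested. UDP-glycosyltransferases had 5 of 15 lower and none higher, and 3 lower without that pair.

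Some transcripts of the ribosome and the respiratory chain were lower. Cytosolic ribosomal proteins had 27 of 80 genes lower and none higher, with a median of -0.56, and 31 of the 80 had groups apart in that direction. RpL21 had 10879, 59471 and 14219 normalized counts in replicate 3 and 3142, 4407 and 3756 in replicate 4 (log2 difference -2.49, standard error 0.48, adjusted p = 0.0045 from limma). The lowest replicate 3 value of RpL21 was 2.47 times the highest of replicate 4. The median of the list was -0.15 under quantile normalization, and 9 genes were lower without the ASH1L/+ pair (median -0.55). Mitochondrial ribosomal proteins had 22 of 70 lower (median -0.72; 9 and -0.49 without that pair), and nuclear genes of oxidative phosphorylation 26 of 69 (median -0.50; 11 and -0.49), with none higher in either list. These 3 lists had median transcripts of 893, 778.5 and 819 bases. In the shortest bin of transcript length 32.4% of all genes were lower, with a median of -0.72. The part of length in these lists was not tested. ND-ACP, the acyl carrier protein of complex I, had 1930, 5419 and 3581 against 855, 1073 and 1083 (log2 difference -1.74).

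The mitochondrial genome itself had 3 of 13 genes lower, all 13 with a difference below 0, and a median of -1.39. It was led by 1 library: mt:CoI, a subunit of cytochrome oxidase, had 35953, 210155 and 19162 in replicate 3 and 7028, 6051 and 4639 in replicate 4 (log2 difference -3.17, standard error 0.67, adjusted p = 0.0065 from limma). The medians were -1.15 in wild type, -3.19 in ASH1L/+ and 0.08 in WDFY3/+, and without the ASH1L/+ pair the median was -0.48 with 2 genes lower.

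A single unnamed gene, FBgn0085364, had the largest difference among all genes tested. It had 92381, 379402 and 197931 normalized counts in replicate 3 and was listed at 0 in all 3 replicate 4 libraries. It was also listed at 0 in both CHD8/+ libraries, while CHD2/+ had 90086 in replicate 3 and 52495 in replicate 4. With no symbol or annotation in the reference used, its identity is not given here. COX7AL2, a cytochrome oxidase subunit paralog, had 369, 5263 and 1870 in replicate 3 and 1.72, 6.88 and 5.55 in replicate 4. In CHD2/+ it went from 5.47 to 740.1. Both genes were under 10 in all of replicate 4 and were tested through replicate 3 alone, so their tests are not given.

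Some transcripts were near 0 in replicate 3 but not in replicate 4. The antisense RNA asRNA:CR44049 had 0.78, 0 and 0 in replicate 3 and 37.98, 53.3 and 68.1 in replicate 4, and lncRNA:CR44419 had 0.77, 0 and 1.74 against 23.8, 22.7 and 41.8. Both were tested through replicate 4 alone, and their fitted differences depend on the value added before the log. Whether the counting used strand is not given in the sources used here, so reads of an antisense RNA and of its partner cannot be told apart. Or45a, an odorant receptor gene, had 1.57, 11.6 and 10.7 against 48.2, 68.1 and 87.6 (log2 difference 3.21, adjusted p = 0.0024 from limma). Its replicate 1 values were 32.3, 32.5 and 49.6.

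The photoreceptor, glial and muscle lists had medians between -0.35 and 0.18. The eye had 6 of 34 photoreceptor and phototransduction genes higher and 2 lower (median 0.18; 2, 2 and 0.01 without the ASH1L/+ pair), and none of the 4 photoreceptor markers was called, ninaE, which encodes the main rhodopsin, among them. Ggamma30A, the gamma subunit of the visual G protein, was called lower (log2 difference -1.18, adjusted p = 0.0073 from limma) but stood at 0.024 under quantile normalization. eys, a secreted protein of the space between rhabdomeres, had 1125, 558 and 969 against 2029, 1719 and 1927 (1.15). Of 18 glial genes 1 was higher and 2 lower, with a median of -0.35, and of 26 muscle genes 1 was higher and 3 lower, with a median of 0.09. Without the ASH1L/+ pair no glial gene was called, and of the muscle genes 1 was lower and none higher. The glial transcription factor repo and the astrocyte gene alrm went opposite ways (0.82 and -1.27), and neither was called without the ASH1L/+ pair. Of gut markers 3 of 4, and of ovary markers both, were at 0 in all 6 libraries.

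Heat shock and unfolded protein genes had 4 of 21 higher and 1 lower (median 0.51), and 5 higher and 1 lower without the ASH1L/+ pair. Hsp83, the Hsp90 chaperone, had 570, 685 and 940 in replicate 3 and 1485, 1540 and 1701 in replicate 4 (log2 difference 1.13, standard error 0.23, adjusted p = 0.0057 from limma). Its groups were apart. stv, a BAG co-chaperone, had 1.28 and Hsp67Ba 1.14, and Hsp23, a small heat shock protein, -1.17. In CHD8/+ the list median was -0.84, against -0.05 in CHD2/+. By chromosome, 20.7% of 1395 X-linked genes tested were called higher and 11.5% lower (median 0.13), while the large autosomal arms had 14.2% to 16.0% higher.

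Replicates 1 and 2 of the same genotypes were set beside replicates 3 and 4. Genes called for a wide gap between replicates 3 and 4 leave more room between them, so the shares that follow are a description. The mean of replicate 2 was between theirs for 1220 of the 1345 genes called higher (90.7%) and for 945 of the 1195 called lower (79.1%), against 51.3% of all genes tested. That of replicate 1 was between them for 640 (47.6%) and 591 (49.5%), against 28.3% of all. For 631 of the genes called higher (46.9%, against 34.1% of all) replicate 1 was at or above both. For 488 of those called lower (40.8%, against 37.6% of all) it was at or below both. It lay beyond replicate 3 instead for 74 called higher (5.5%) and 116 called lower (9.71%). In the same fit, replicate 4 minus replicate 2 called 397 genes higher (4.71%) and 245 lower (2.9%), 7.61% in all, and replicate 3 minus replicate 2 called 73 higher (0.866%) and 103 lower (1.22%), 2.09% in all. These comparisons share libraries with replicate 4 minus replicate 3 and are given side by side. For tim the log2 differences were 2.47 for replicate 4 minus 3, 0.65 for 4 minus 2 and -1.82 for 3 minus 2. For Hr38 they were 3.69, 1.45 and -2.24. For Lsp2 they were -5.25, -6.20 and -0.96, and the last did not pass (adjusted p = 0.47 from limma). Both tim and Hr38 were lower in replicate 3 than in replicate 2 (adjusted p = 0.011 and 0.027 from limma).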

How the data were processed

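RNA of adult heads was made into 3' mRNA-Seq libraries (single reads near the poly(A) end). The authors assigned reads to BDGP6 transcripts using Salmon 0.12.0, summed the estimates over each gene and scaled them, with DESeq2 among the tools named. The deposited signal values are therefore normalized counts, scaled by library and, in addition, gene by gene within each library. They are fractional and whole reads could not be recovered, so no count model was used, whatever the labels call the tables. Symbols matched for 17253 of 17559 genes.

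Genes with at least 10 in 3 or more of the 6 libraries were kept, and log2(value + 1) was fitted with limma 3.58.1 (R 4.3.3) over the 12 libraries of wild type, ASH1L/+ and WDFY3/+, with 1 term per genotype, 1 per replicate number and a variance trend. P-values were two-sided and adjusted over all genes tested by Benjamini-Hochberg. The residual degrees of freedom were 6 and the median standard error of a log2 difference 0.30. The low genes are understated by the added 1. In simulated data with this spread for replicate 4 minus replicate 3 (8434 genes, 50 changed per fold), 2% of 1.5-fold, 26% of 2-fold, 82% of 4-fold and 94% of 8-fold changes were called, with 6 unchanged genes called. Transcript lengths, chromosomes and symbols came from the Ensembl BDGP6 annotation. Gene lists, markers and members were chosen with earlier results of these data known. The text names genes among the largest called differences whose groups did not overlap (up to 15 each way), up to 5 members of each list with the smallest p, the cell type markers and the mutated genes. For the depth, the commonest step between low values was taken as 1 read. Alternatives were other filters, added values, normalizations, sets of libraries, fits and thresholds, and leaving out each library. Plots used matplotlib 3.10.9, and tables pandas 2.3.3 with numpy 2.4.6 in Python 3.11.15. The double heterozygote was scaled in its own table and is not used here.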

Additional observations from a re-analysis of the deposited data

Results flagged for a closer look

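Among the replicate 4 libraries of the 5 genotypes, CHD8/+ lay far from the other 4 on the second component, with a score of -12.3 against 50.8 to 66.9. Its sample number in the labels was 89, against 90, 91, 93 and 94 in the other 4, and the part of that order was not tested. The same library had 17.8% of its summed normalized counts in its 10 most abundant genes, also far from the other 4 (11.3% to 12.96%). Among the replicate 3 libraries, ASH1L/+ stood apart with 7.07% of its sum on the mitochondrial genome. Each was picked by the size of its gap to the nearest library, over 35 measures in groups, and chance picks about 1 in 20.

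The CHD8/+ pair moved opposite to the other 4 pairs, replicate 4 minus replicate 3, in 7 summaries, and the difference was not tested, since each pair is 1 library against 1. The gap between the longest and shortest transcript bins was -0.18. The list medians in CHD8/+ were -0.090 for pan-neuronal and synaptic genes, -0.52 for ion channels, -0.42 for nicotinic and GABA receptors, -0.14 for trithorax, Polycomb and remodelers, 1.73 for yolk proteins and other female-biased fat body genes and 0.47 for cytosolic ribosomal proteins.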

How the results depend on the processing

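No paired analysis was possible with the replicate number as a block, because that number is itself compared. The fit instead paired the libraries by genotype, and without the genotype term 1251 genes were higher and 1051 lower. Replicate 4 minus replicate 3 kept the counts within 1.5 times under other added values, filters and normalizations, with 1219 to 1478 genes higher and 1072 to 1222 lower. It gave 612 higher and 325 lower with the 6 libraries only, of which 931 were also called in the 12-library fit, 748 higher with 20 libraries (978 lower), 827 higher at 2-fold, and 770 and 349 at an adjusted p under 0.01. Leaving out each library gave 836 to 1412 higher and 452 to 1316 lower. Without the ASH1L/+ pair, an alternative chosen after seeing the data, 513 were lower.

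The comparisons with replicate 2 were less stable. Replicate 4 minus replicate 2 called 646 lower with no filter, 164 higher under quantile normalization, 0 higher and 13 lower with 20 libraries, 262 higher with no genotype block, 139 higher and 139 lower with no trend, and 50 and 103 with the genotypes fitted without replicate 1 (chosen after seeing the data). Leaving out each library gave 0 to 754 higher and 9 to 542 lower. Replicate 3 minus replicate 2 called 119 higher with at least 10 in all 6, 129 and 55 with TMM-like factors, 22 and 25 with 20 libraries, 38 and 67 with no genotype block, 10 and 18 with no trend, 1 and 5 without the ASH1L/+ pair, and 0 and 0 without replicate 1. Leaving out each library gave 0 to 504 higher and 1 to 299 lower. Where limma called 0 higher, 1393 to 1984 genes had an unadjusted p under 0.05 in either direction, and no other tool was run.

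Over the named genes and all alternatives, 1911 log2 differences kept their direction and their side of the thresholds, 94 no longer passed and 4 newly passed. Under quantile normalization 3 genes changed sign: apolpp to 0.50, ninaE to 0.84 and Ggamma30A to 0.024. Without wild type replicate 3 ninaE was at 0.15, and it ranged from -0.53 to 0.15 over the libraries left out. With no filter the median of all genes was -0.14. The cause of these changes was not tested.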
